A study of Mus musculus with 20 samples.

Results

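The genes described here belong to the machinery that detects DNA in the cytosol. They are the DNA sensor Cgas, its adaptor Tmem173 (also named Sting1), the kinase Tbk1, the transcription factor Irf3, the nucleic acid sensor Zbp1, the Ifi200 genes Ifi203, Ifi204, Ifi208 and Ifi213, and the nuclease Trex1. Members were taken by mouse gene symbol, matched from the Ensembl identifier. Of the 10 genes so named, 9 were listed among the 15956 genes with deposited counts and passed the filter on low counts, which kept 13991 genes. Trex1 was not listed and has no value. It overlaps Atrip on the same strand of chromosome 9, all 331 of the 75-base windows in its last 400 bases also occur in Atrip transcripts, and Atrip was not listed either.

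RNA was measured in left ventricular heart tissue of 20 male mice fed 1 of 4 diets, with 5 mice per diet. The groups are named NP (a diet of normal protein content), LP (low protein), HF (high fat, normal protein) and HF + LP (high fat, low protein), so that fat and protein content varied in a crossed design. All are labelled as 18 months old, while the study's methods give a younger age at tissue collection. HF mice were the heaviest at 58.9 ± 1.76 g, followed by HF + LP (48.6 ± 5.93 g), NP (43.0 ± 7.82 g) and LP (32.6 ± 2.69 g, SD, n = 5). Libraries were made with the QuantSeq method, which reads the 3′ ends of transcripts.

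Cytosolic DNA is bound by cGAS, which then makes the messenger cyclic GMP-AMP. The messenger binds STING on the endoplasmic reticulum, STING moves to the Golgi and recruits the kinase TBK1, and TBK1 phosphorylates IRF3, which enters the nucleus and induces type I interferon. Interferon in turn induces a large set of genes, among them Zbp1 and most Ifi200 genes, so this pathway holds both sensors that are present at rest and sensors that are themselves interferon targets. In the heart the pathway is known for its response to mitochondrial DNA that has leaked into the cytosol.

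Totals lay between 12559607 and 23331907 counts per mouse. The 7 ventricular cardiomyocyte markers were found in every library, with summed levels of 38146 to 58515 CPM (counts scaled to a common library size). Some libraries stood apart in other markers. The 4 atrial markers summed to 12343 CPM in HF mouse 1 and 16747 CPM in LP mouse 13, against 50.2 to 5205 CPM in the other 18 libraries. The 5 T cell markers summed to 188 CPM in LP mouse 20 and to at most 3.01 CPM elsewhere. Results were therefore also computed without single mice and with the log2 atrial marker level as a covariate, a setting added after these levels had been seen. Because whole tissue was sequenced, a change in the number of cells of a type and a change in RNA per cell cannot be told apart.

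Levels are given as normalized counts, the counts of a gene scaled to the mean effective library size. A gene was called where its Benjamini-Hochberg adjusted p from edgeR was under 0.01 and its base mean, the mean normalized count over the 20 mice, was over 50. Cgas, Zbp1 and Ifi208, with base means of 35.7, 43.7 and 44.6, lay under that minimum and could not be called at any p. The other 6 listed members lay above it.

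The first question was whether the high-fat diet altered these genes at normal protein content. Of the 9 members, 7 were higher in HF than in NP at an unadjusted p under 0.05 (5.17% of all genes tested), none was lower at that threshold (7.91% of all genes), and none was called (0.264%). At an adjusted p under 0.05, 2 members were higher, Ifi204 and Ifi208 (0.465%). This count was 0 to 4 when 1 mouse was left out, with none left without NP mouse 3, 4 or 6 or HF mouse 2, 4 or 5. The median log2 fold change was 0.58 over the 9 members and −0.00 over all genes tested. In fold, the members separated into Zbp1, Ifi204, Ifi208 and Ifi213, which were 2.48 to 2.81 times higher, and Cgas, Tmem173 and Ifi203, which were 1.26 to 1.49 times higher.

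**Figure D1:**
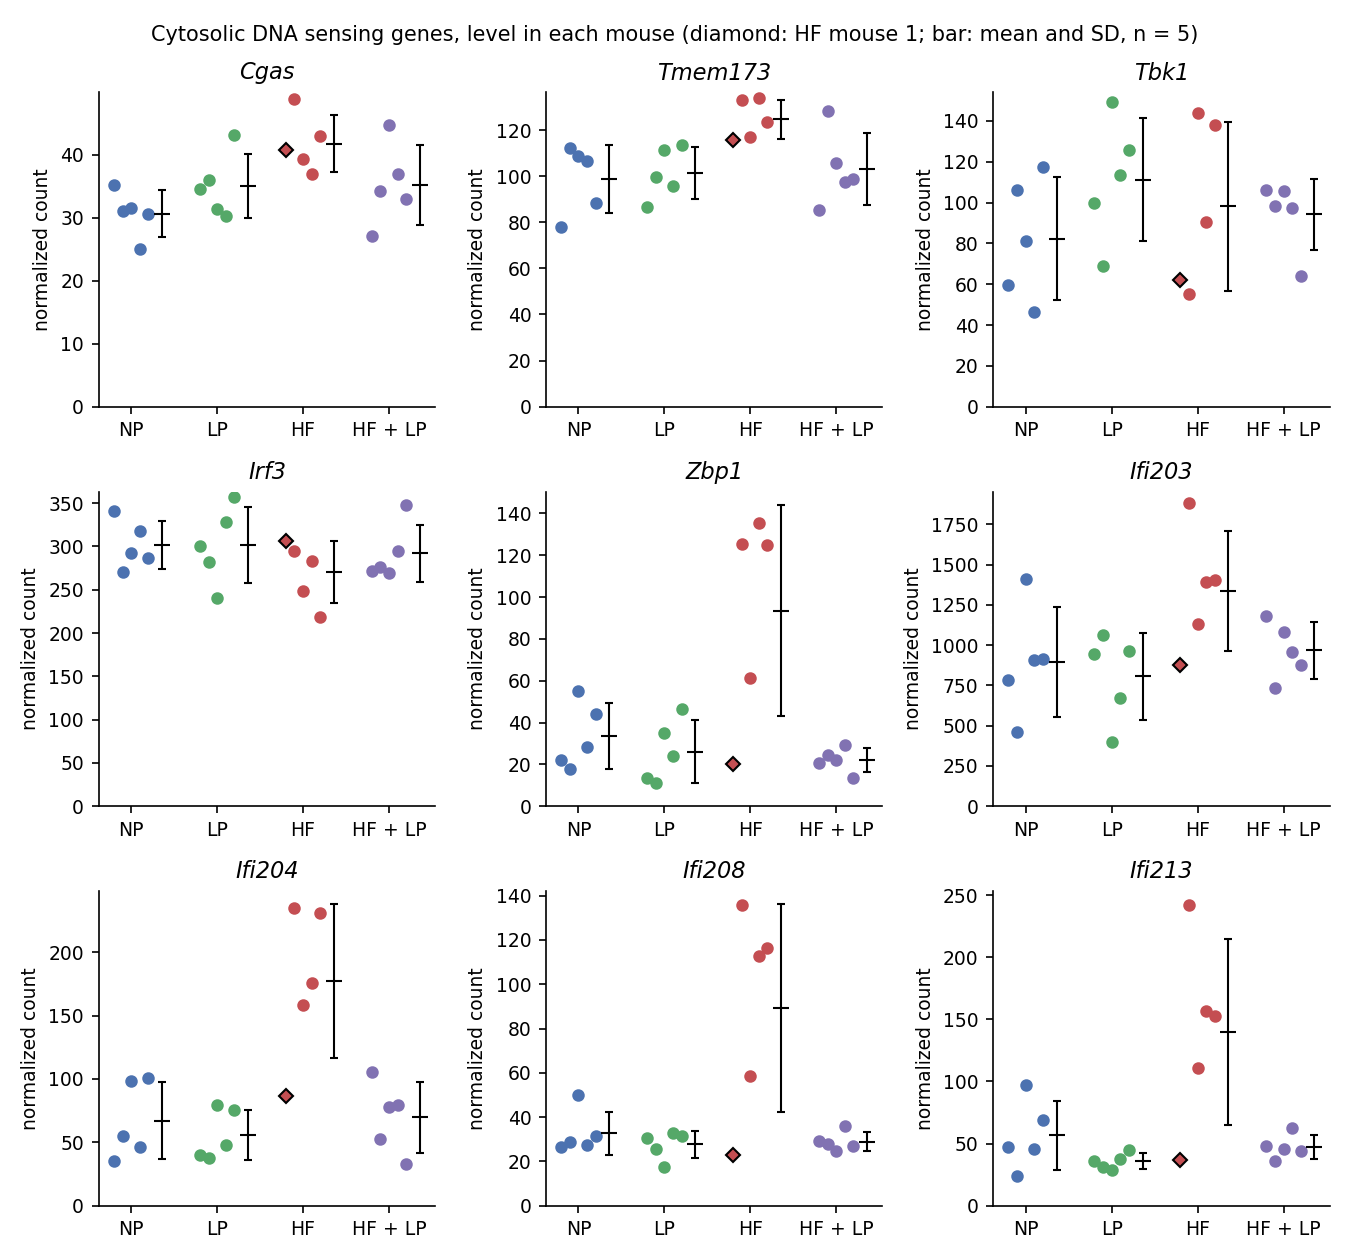
Normalized count of each of the 9 listed members (vertical axis, linear from 0) in each mouse, by diet (horizontal axis), with the mean and SD beside each group (n = 5). HF mouse 1, drawn as a diamond, sits within or just below the NP range for Zbp1 (20.3), Ifi208 (22.9) and Ifi213 (36.9), while the other 4 HF mice lie above every NP mouse for these genes.

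Cgas (chr9:78430526-78443237 on GRCm38, minus strand) encodes the enzyme that binds cytosolic DNA. In the NP mice its normalized counts were 35.2, 31.0, 31.5, 25.0 and 30.5 (mean 30.6 ± 3.68, SD, n = 5). In the HF mice they were 40.7, 48.8, 39.3, 37.0 and 43.0 (41.7 ± 4.49). Every HF mouse was above every NP mouse, by a narrow margin. Cgas was 1.36 times higher in HF (0.44 ± 0.17 on the log2 scale, standard error, edgeR adjusted p = 0.226), and the two-sided exact permutation test over the 10 mice gave p = 0.00794, the smallest that 5 mice against 5 allow. These values rest on 24 to 56 raw reads per library.

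Tmem173 encodes STING, the adaptor that carries the signal of cGAS to the kinase, and lies on the minus strand of chromosome 18. Its normalized counts were 78.1, 112.2, 108.8, 106.7 and 88.2 in NP and 115.7, 133.1, 117.0, 133.8 and 123.5 in HF. The groups did not overlap. The lowest HF mouse, mouse 1, exceeded the highest NP mouse by a few counts only. The level was 1.26 times higher in HF (0.33 ± 0.13 on the log2 scale, standard error, edgeR adjusted p = 0.245, exact permutation p = 0.00794), and its unadjusted p was above 0.05 without NP mouse 3. Cgas and Tmem173 were the 2 members whose HF and NP mice did not overlap. Of all genes tested, 2.07% were higher in HF without overlap.

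Tbk1 (chr10:121546455-121586787, minus strand), the kinase that STING recruits, varied widely within diets. Its HF mice had 62.3, 55.3, 144.1, 90.6 and 138.1 normalized counts and its NP mice 59.4, 106.2, 81.3, 46.5 and 117.6. The groups overlapped over most of their range. The log2 fold change was 0.27 (standard error 0.29, adjusted p = 0.777 from edgeR), with an approximate 95% interval of −0.29 to 0.84.

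Irf3 (chr7:44997648-45002848, plus strand), the transcription factor that TBK1 phosphorylates, was the one member with a lower mean in HF. Its mean was 301.8 ± 27.6 in NP and 270.5 ± 36.1 in HF (SD, n = 5). The ranges of the 2 groups overlapped, 271 to 341 in NP and 219 to 306 in HF, and the difference did not pass the test (−0.16 ± 0.12 on the log2 scale, standard error, edgeR adjusted p = 0.644, approximate 95% interval −0.40 to 0.07). Both genes act through phosphorylation of their proteins, which RNA counts do not measure.

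Zbp1 (chr2:173206612-173218923, minus strand) encodes a sensor of nucleic acids in the Z conformation, which engages RIPK3 in necroptosis and is an interferon target. Its normalized counts were 22.0, 17.9, 55.1, 28.4 and 44.1 in NP. In HF they were 20.3, 125.2, 61.1, 135.5 and 125.0 (mice 1 to 5). HF mouse 1 lay within the NP range, mouse 3 just above it, and the other 3 HF mice far above it. Zbp1 was 2.81 times higher in HF (1.49 ± 0.44 on the log2 scale, standard error, edgeR adjusted p = 0.0962), and the exact permutation test gave p = 0.0556.

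Ifi204 (chr1:173747293-173766943, minus strand) is a mouse relative of the human DNA sensor IFI16. It had 35.2, 54.9, 98.3, 46.5 and 100.7 normalized counts in NP. It had 86.5, 234.6, 158.1, 176.0 and 230.9 in HF. HF mouse 1 again lay within the NP range, and the other 4 HF mice lay above every NP mouse. The log2 fold change was 1.41 (standard error 0.34, adjusted p = 0.0397 from edgeR, exact permutation p = 0.0238).

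Ifi208 (chr1:173673675-173698395, plus strand) and Ifi213 (chr1:173566283-173599274, minus strand) are nearby members of the same family. Ifi208 had 26.4, 28.6, 49.8, 27.5 and 31.7 normalized counts in NP and 22.9, 135.7, 58.5, 112.6 and 116.6 in HF. Ifi213 had 47.3, 23.9, 97.0, 45.6 and 69.0 in NP and 36.9, 242.5, 110.9, 156.6 and 152.7 in HF. For both genes HF mouse 1 was in the NP range or below it, HF mouse 3 was the lowest of the remaining 4, and NP mouse 5 was the highest of its group. The log2 fold changes were 1.45 for Ifi208 (standard error 0.33, adjusted p = 0.0341 from edgeR) and 1.31 for Ifi213 (standard error 0.36, adjusted p = 0.0734). Exact permutation tests gave p = 0.0556 and p = 0.0476.

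Ifi203 (chr1:173920407-173942672, minus strand) is a further member of the family. Its mean was 897 ± 343 in NP and 1337 ± 373 in HF (SD, n = 5). NP mouse 5, at 1414, exceeded 4 of the 5 HF mice. The log2 fold change was 0.58 (standard error 0.27, adjusted p = 0.363 from edgeR, exact permutation p = 0.111). Its unadjusted p was above 0.05 in 8 of the 20 fits that left out 1 mouse (NP mice 3, 4, 6 and 8, LP mouse 20, HF mice 2, 4 and 5). Ifi203 overlaps Mndal on the same strand, so reads of the pair depend on how the counting treated the overlap.

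HF mouse 1 was the lowest HF mouse for Tmem173, Zbp1, Ifi203, Ifi204, Ifi208 and Ifi213, and HF mouse 3 was the second lowest for each of them. Those 2 mice also had the highest atrial marker sums of the HF group, 12343 and 4742 CPM against 122 to 198 CPM in HF mice 2, 4 and 5. With the atrial level as a covariate, the log2 fold changes in HF against NP were 1.48 for Zbp1, 1.45 for Ifi204, 1.31 for Ifi208 and 1.23 for Ifi213, and 6 members in place of 7 had p under 0.05. The one lost was Ifi203, which stood at 0.52 with the covariate and 0.58 without it. Without HF mouse 1, the same 7 members had p under 0.05, and 4 had an adjusted p under 0.05, the highest count when any 1 mouse was left out. Ifi208 then had an adjusted p of 0.00187, still with a base mean under the minimum, and Ifi213 had 0.0107, Ifi204 0.0192 and Zbp1 0.0229 (edgeR). Whether the share of all genes also rose in this fit was not computed.

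**Figure D2:**
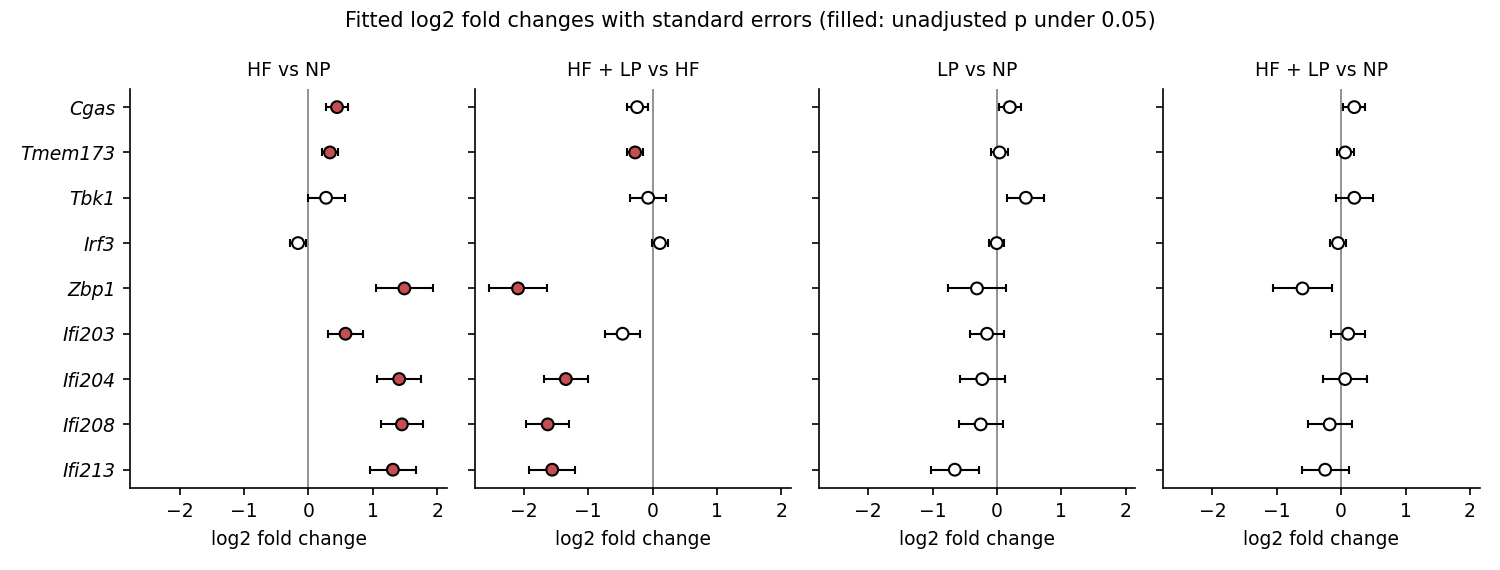
Fitted log2 fold change (horizontal axis) with its standard error for each of the 9 members (rows) in 4 comparisons, with filled points where the unadjusted p was under 0.05. In HF against NP 7 points are filled, in HF + LP against HF 5, and in LP against NP and HF + LP against NP none.

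The second question was whether protein restriction altered the same genes under the high-fat diet. This comparison shares the HF mice with the one above, so a chance deviation of the HF mice moves both in opposite directions. Of the 9 members, 5 were lower in HF + LP than in HF at an unadjusted p under 0.05 (2.43% of all genes tested), none was higher at that threshold (2.41%), and none was called by edgeR (0.0% of all genes, whereas DESeq2 called 16 genes). The median log2 fold change was −0.47 over the members and 0.02 over all genes. No member was without overlap between the 2 groups (0.636% of all genes).

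Zbp1 had 20.8, 24.6, 21.9, 29.1 and 13.4 normalized counts in the HF + LP mice, a mean of 22.0 ± 5.76 against 93.4 ± 50.4 in HF (SD, n = 5). Every HF + LP mouse lay below HF mice 2 to 5, and HF mouse 1 lay among them. The log2 fold change was −2.09 (standard error 0.45, adjusted p = 0.172 from edgeR, exact permutation p = 0.0397).

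Ifi208 had 29.2, 27.8, 24.7, 35.8 and 26.8 normalized counts in HF + LP. Its SD there was 4.22, against 46.9 in HF, and every HF + LP mouse was above HF mouse 1 and below the other 4 HF mice. The log2 fold change was −1.63 (standard error 0.33, adjusted p = 0.134 from edgeR, exact permutation p = 0.0476).

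Ifi213 had 47.9, 36.3, 45.6, 62.7 and 44.3 normalized counts in HF + LP (47.4 ± 9.62 against 139.9 ± 74.9 in HF). Its log2 fold change was −1.56 (standard error 0.36, adjusted p = 0.217 from edgeR, exact permutation p = 0.0397). Again HF mouse 1 alone of the HF mice lay in the HF + LP range. Ifi204 had 105.2, 52.3, 78.0, 79.5 and 33.0 normalized counts in HF + LP, and differed from HF by −1.35 on the log2 scale (standard error 0.34, adjusted p = 0.238 from edgeR, exact permutation p = 0.0159). Here 4 of the 5 HF + LP mice were below every HF mouse, and mouse 1 of HF + LP was above HF mouse 1.

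Tmem173 had 85.4, 128.2, 105.6, 97.4 and 99.0 normalized counts in HF + LP, and 4 of these 5 mice were below every HF mouse. Its log2 fold change was −0.27 (standard error 0.13, adjusted p = 0.999 from edgeR, exact permutation p = 0.0397). Its unadjusted p was just under 0.05. It was above 0.05 in 10 of the 20 fits that left out 1 mouse and with the library name number, the compared diets alone or the atrial level, while the log2 fold change in the last of these was −0.26. Cgas had 27.1, 34.2, 44.7, 37.0 and 33.0 normalized counts, which reached into both the NP and the HF range. The Cgas log2 fold change was −0.24 (standard error 0.16, exact permutation p = 0.111). In exact permutation tests Ifi203, at −0.47, had p = 0.0714, Tbk1, at −0.07, had p = 0.937, and Irf3, at 0.11, had p = 0.373.

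Without HF mouse 1, 6 members were lower in HF + LP at p under 0.05, Ifi203 being the one added, and 3 had an adjusted p under 0.05. These were Ifi208 at 0.00262, Ifi213 at 0.0117 and Zbp1 at 0.0132 (edgeR). The shares of all genes in the fit without HF mouse 1 were not computed, so these counts cannot be set against them. With all mice, and in each of the other 19 fits that left out 1 mouse, no member had an adjusted p under 0.05. With DESeq2 on all mice, 1 member was called lower in this comparison (0.126% of the genes it tested), Ifi213 (adjusted p = 0.00975), while Ifi208 (0.00232) and Zbp1 (0.00281) passed the p threshold with base means under 50. In HF against NP, DESeq2 called 1 member higher (0.469% of the genes it tested), Ifi204 (adjusted p = 0.00398), and Ifi208 passed the p threshold (0.00258) with a base mean under 50.

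Protein restriction was also compared at normal fat content. Between LP and NP, none of the 9 members had an unadjusted p under 0.05 (7.23% of all genes tested) and none was called by edgeR (0.0%) or DESeq2. Zbp1 had 13.3, 11.3, 35.2, 23.9 and 46.6 normalized counts in LP, within or below the NP range. The smallest p was that of Ifi213, at a log2 fold change of −0.65 (adjusted p = 0.769 from edgeR), with an approximate 95% interval of −1.38 to 0.08. Cgas stood at 0.20, Tmem173 at 0.04, Tbk1 at 0.45, Irf3 at −0.00, Zbp1 at −0.31, Ifi203 at −0.15, Ifi204 at −0.23 and Ifi208 at −0.25, with adjusted p-values of 0.807 or more.

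HF + LP was then set against each normal-fat diet. Against LP, none of the 9 members had p under 0.05 (15.9% of all genes) and none was called (0.1%). Against NP, none had p under 0.05 (8.77%) and none was called (0.0286%). The intervals still leave room for differences of some size, such as −1.51 to 0.31 on the log2 scale for Zbp1 against NP and −0.67 to 0.74 for Ifi204.

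Whether the response to fat depended on protein content was tested directly by the interaction, the log2 fold change of fat at low protein minus that at normal protein. It was below 0 at p under 0.05 for 3 members (4.31% of all genes tested) and called for none (0.0%). Zbp1 had an interaction of −1.78 (standard error 0.64), Ifi208 of −1.38 (0.48) and Ifi204 of −1.12 (0.48), with adjusted p-values of 0.650, 0.636 and 0.684 from edgeR. Cgas, at −0.44, Tmem173, at −0.31, and Ifi213, at −0.91, did not pass that threshold. Ifi204 did not pass it in 8 of the 20 fits that left out 1 mouse (NP mice 3 and 6, LP mice 13 and 20, HF mice 2 and 5, HF + LP mice 2 and 5). With the animal number as a block, the interaction was −0.30 for Zbp1, −0.86 for Ifi208 and −0.52 for Ifi204, each with p above 0.05 (edgeR).

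The 4 Ifi200 members lie in 1 stretch of chromosome 1 with their relatives. From Aim2 to Ifi205, GENCODE M21 places 13 protein-coding genes within 681 kb on GRCm38 (chr1:173350879-174031810). Of these, 11 were listed and tested, and Ifi214 and Ifi202b were not listed. In HF against NP the log2 fold change was above 0 for all 11, and 9 had p under 0.05 (5.17% of all genes tested were higher in HF at that threshold). In HF + LP against HF it was below 0 for all 11, and 7 had p under 0.05 (2.43% of all genes). Neighbouring genes of 1 family share sequence, so these counts are not independent.

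The size of the HF difference varied along the stretch. Ifi206 had the largest, 4.34 times higher in HF (adjusted p = 0.0581 from edgeR), on low counts of 13.1 ± 8.94 in NP and 56.0 ± 25.0 in HF (SD, n = 5). Ifi205 and Ifi211 stood at 0.87 (adjusted p = 0.0397) and 1.08 (adjusted p = 0.0430). Ifi209 stood at 1.46 and Ifi207 at 0.95, with adjusted p-values of 0.188 and 0.112. At the other end of the range were Mndal, at 0.54 (adjusted p = 0.546), and Aim2, at 0.04 (adjusted p = 0.983). Aim2 forms the inflammasome on DNA, and its mean normalized count was 38.4 ± 3.70 in NP and 40.1 ± 21.1 in HF.

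**Figure D3:**
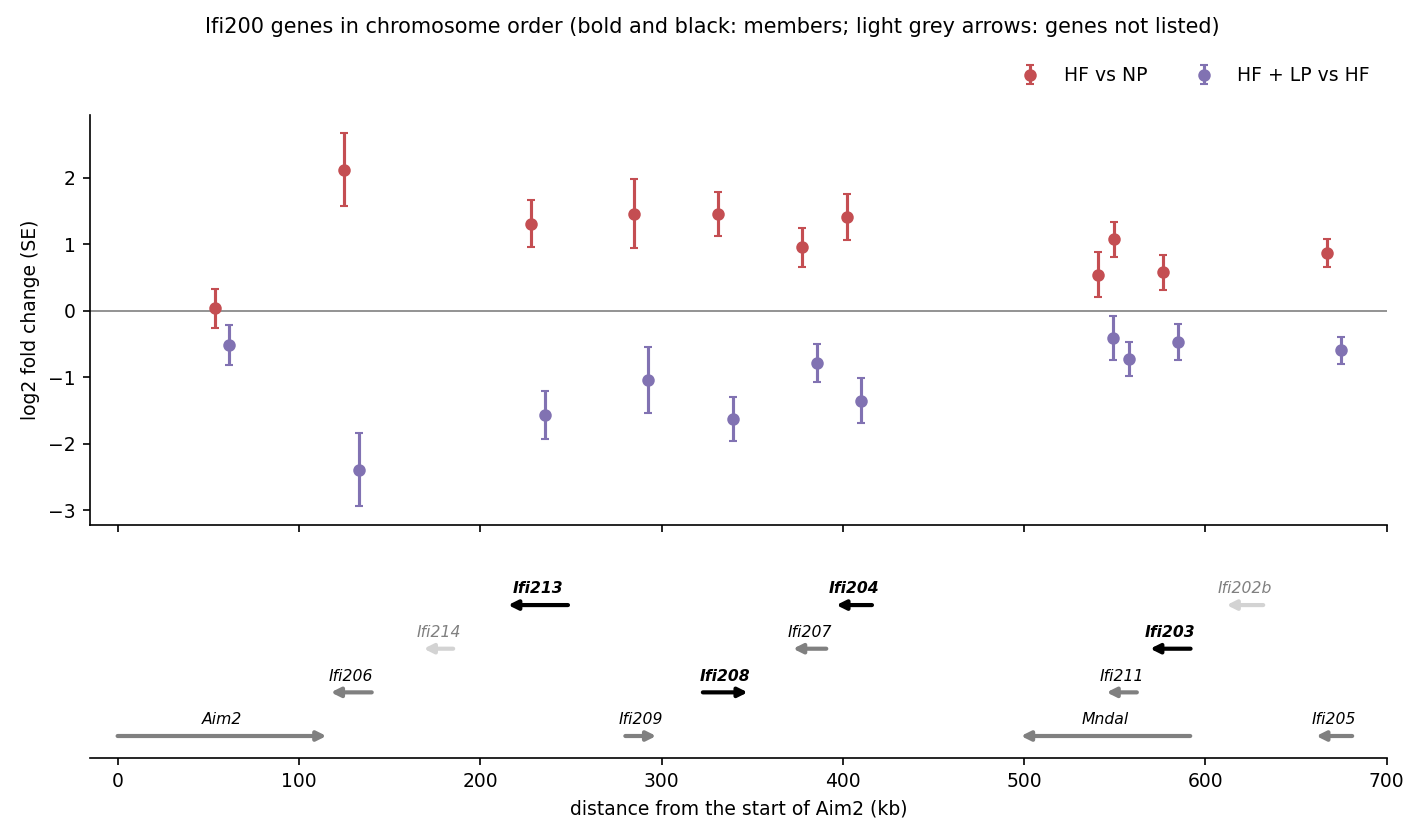
Log2 fold change with standard error (upper part) of the 11 listed Ifi200 genes in HF against NP and in HF + LP against HF, above the genes' positions and directions (arrows) by distance in kb from the start of Aim2. All 11 points for HF against NP are above 0, with Aim2 nearest to it (0.04) and Ifi206 farthest, and all 11 for HF + LP against HF are below 0.

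Some reads cannot be told apart between relatives. Of the 75-base windows in the last 400 bases of each gene's transcripts, 14.5% of those of Ifi208 also occur in Ifi213, 11.5% of those of Ifi213 occur in Ifi206 or Ifi208, and 2.97% of those of Ifi203 occur in Ifi203-ps or Mndal. None of their own windows was shared for Cgas, Tmem173, Irf3, Zbp1 or Ifi204, and for Tbk1 3.48% were. In the other direction, 12.3% of the windows of Mndal occur in other genes, among them Ifi203 and Ifi204. Outside the members, Ifi211 shared 76.4% and Ifi205 39.4%, with each other or with Mndal. The counting program is not given in the sources used here, so how it placed such reads is unknown.

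The promoters of several Ifi200 genes share a short stretch of sequence. RefSeq promoter windows (GRCm38.p6, 250 bases before to 50 bases after a start) were searched on both strands for GAAANNGAAA, the core of the interferon-stimulated response element. Zbp1, Ifi204 and Tmem173 had no window in the table. Of all 32851 windows, 1131 held the motif (3.44%). Of the 7 members with a window, Ifi203 (in 1 of its 2 windows), Ifi208 and Ifi213 held it, whereas Cgas, Tbk1, Irf3 and Trex1 did not, which is 3 of the members' 9 windows. Of the 12 genes from Aim2 to Ifi205 with a window, 9 held it, in 10 of 14 windows. The match and 20 bases on each side are printed 5′ to 3′ along the gene's own strand, with the motif in capitals, for the members and for 3 relatives that show how far the stretch is conserved.
Ifi203, chr1:173942498-173942547, minus strand: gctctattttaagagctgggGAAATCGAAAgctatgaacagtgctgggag
Ifi208, chr1:173673587-173673636, plus strand: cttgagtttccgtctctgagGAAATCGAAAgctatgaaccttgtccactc
Ifi213, chr1:173599316-173599365, minus strand: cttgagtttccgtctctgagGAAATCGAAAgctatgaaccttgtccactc
Ifi206, chr1:173491329-173491378, minus strand: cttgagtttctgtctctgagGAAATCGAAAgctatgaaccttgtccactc
Ifi207, chr1:173741821-173741870, minus strand: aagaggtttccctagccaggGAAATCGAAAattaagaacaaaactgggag
Ifi211, chr1:173913054-173913103, minus strand: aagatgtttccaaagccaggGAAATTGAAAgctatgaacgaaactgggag

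The motif began 35 to 73 bases before the start in the members Ifi203, Ifi208 and Ifi213. The 50 bases printed for Ifi208 and Ifi213 are identical, and over the whole windows 282 of 285 aligned bases (98.9%) were the same. The 50 bases around the match in Mndal, not printed, are identical to those of Ifi203. Ifi203, which carries the same 10 letters, had a log2 fold change of 0.58 in HF, against 1.45 and 1.31 for Ifi208 and Ifi213. Among the tested relatives, those without a match were Ifi209, at 1.46, and Aim2, at 0.04. Those with a match were Mndal, at 0.54, Ifi205, at 0.87, Ifi207, at 0.95, and Ifi211, at 1.08. Ifi206 also had a match and was 4.34 times higher in HF. Whether the motif bears on the HF difference was not tested. A match describes letters in the window and is not evidence of binding.

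The rest of the pathway was described with 9 lists of genes outside the members. The sensors and inflammasome partners of cytosolic DNA numbered 29 tested genes. At p under 0.05, 5 of them had a higher and 2 a lower level in HF (5.17% and 7.91% of all genes tested), with a median log2 fold change of 0.06. The higher ones were led by Ifi211 and Ifi206 and also held Ifi207 and Ifi209. These Ifi200 genes were already counted in the stretch on chromosome 1. Prkdc, the catalytic subunit of the DNA-dependent protein kinase, was lower in HF at −0.58 (standard error 0.14, adjusted p = 0.0390 from edgeR). In HF + LP against HF, 3 genes of the list were lower at p under 0.05 (2.43% of all genes). They were Ifi206, Ifi211 and Ifi207, which lie in that same stretch.

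Genes upstream of the sensors were counted in the same way. Of 16 genes tied to the release of mitochondrial DNA, 1 was lower in HF at p under 0.05, a share near the 7.91% of all genes. This was Dnm1l, which encodes the fission protein DRP1 (log2 fold change −0.19, adjusted p = 0.244), and the median was −0.03. Between HF + LP and HF 1 was higher in HF + LP (2.41% of all genes), Twnk, the mitochondrial DNA helicase (0.34, adjusted p = 0.681). None of the 14 regulators of cGAS had p under 0.05 in HF against NP (5.17% of all genes were higher and 7.91% lower). Of these 14, 1 was lower in HF + LP than in HF (2.43% of all genes), Samhd1, which degrades deoxynucleotides (−0.27, adjusted p = 0.912).

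Among 12 nucleases and repair enzymes, 3 were higher in HF at p under 0.05 (5.17% of all genes) and the same 3 were lower in HF + LP (2.43%), in comparisons that share the HF mice. They were Adar, which edits double-stranded RNA (0.49, adjusted p = 0.0839, and −0.60, adjusted p = 0.217), the exonuclease Pld4 (0.64, adjusted p = 0.137, and −0.43, adjusted p = 0.999), and Dnase1l1 (0.28, adjusted p = 0.376, and −0.31, adjusted p = 0.923). Among 12 genes of cyclic GMP-AMP breakdown and transport, 1 was lower in HF at p under 0.05, a share near the 7.91% of all genes, and this was the exporter Abcc1 (−0.45, adjusted p = 0.119). Against HF, 1 was lower in HF + LP (2.43% of all genes), P2rx7, a channel gated by extracellular ATP (−0.42, adjusted p = 0.684). The medians of these lists were 0.10 and 0.11 in HF against NP.

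Around STING, 3 of 31 trafficking and turnover genes were higher and 2 lower in HF at p under 0.05 (5.17% and 7.91% of all genes), with a median of 0.04. Usp18, a deubiquitinase and itself an interferon target, stood at 1.47 in HF (adjusted p = 0.0628) and at −1.38 in HF + LP against HF (adjusted p = 0.347), where 2 genes of the list were lower at p under 0.05 (2.43% of all genes). Npc1, the lysosomal cholesterol transporter, was lower in HF (−0.47, adjusted p = 0.0704). Of the 23 tested genes of the kinases and the NF-kB arm, none had p under 0.05 in either comparison. Of all genes, 5.17% were higher and 7.91% lower in HF, and 2.43% were lower and 2.41% higher in HF + LP. The medians of this list were −0.00 and −0.04. Of the 8 partners of ZBP1 in cell death, 2 were higher in HF at p under 0.05 (5.17% of all genes) and 1 was lower in HF + LP than in HF (2.43%). Cflar, the caspase-8 regulator cFLIP, stood at 0.25 in HF (adjusted p = 0.372). Mlkl, the executor of necroptosis, stood at 0.99 in HF (adjusted p = 0.104) and at −0.77 in HF + LP against HF (adjusted p = 0.714), on mean normalized counts of 17.3, 34.2 and 20.1 in NP, HF and HF + LP.

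The list of the interferon signal and its early targets held the most genes past the threshold. Of 21 tested genes, 14 were higher in HF at p under 0.05 (5.17% of all genes) and none was lower (7.91%), with a median of 0.92, and 15 were lower in HF + LP than in HF (2.43%), with a median of −0.92. Irf7, the factor that amplifies interferon, stood at 1.88 (adjusted p = 0.0397) and −2.25 (adjusted p = 0.134). Ddx58, the RNA sensor RIG-I, stood at 0.92 in HF (adjusted p = 0.0235), and Rsad2 at 1.31 (adjusted p = 0.0341). Isg15 and Irf9 stood at −1.72 and −0.94 in HF + LP against HF, with adjusted p-values of 0.217 and 0.178 (edgeR). No gene of any of the 9 lists was called, and Ifnb1, the gene of interferon beta, was not listed. The list was known to respond in these mice when it was chosen, so its direction is no independent support.

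**Figure D4:**
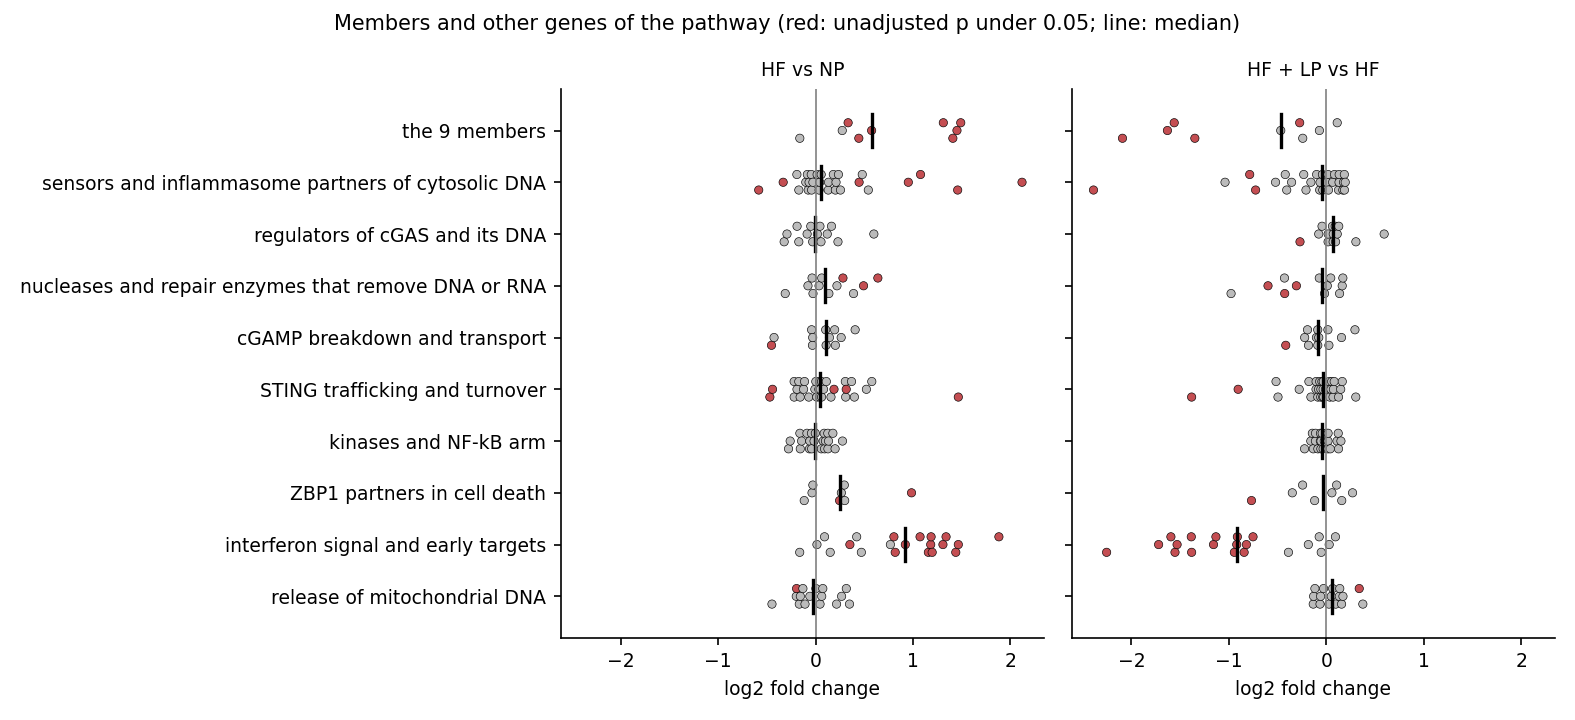
Log2 fold change (horizontal axis) of the 9 members and of the tested genes of 9 pathway lists (rows) in HF against NP and in HF + LP against HF, with red points at an unadjusted p under 0.05 and a black line at each median. The medians of the members (0.58) and of the interferon list (0.92) stand to the right in HF against NP, and those of the other 8 lists lie between −0.03 and 0.26.

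Across the 20 mice, Zbp1 was most like B2m, which encodes beta-2 microglobulin (Pearson r of log2 CPM 0.97, Spearman rho 0.93), followed by Isg15 (0.95) and Gbp3 (0.94). Ifi204 was most like Gbp3 (0.92), Rtp4 (0.91) and Ifit1 (0.90). After each diet's mean was removed, r was 0.94, 0.91 and 0.90 for Zbp1 with these genes, and 0.88, 0.78 and 0.89 for Ifi204. Tmem173 was most like Alox5ap (0.82), Shisa5 (0.79) and Cybb (0.75), and within diets these were 0.72, 0.62 and 0.58. Alox5ap and Cybb are genes of myeloid cells. Cgas had likenesses of 0.75 with Rap2b, 0.74 with Medag and 0.73 with Smap1, which within diets were 0.56, 0.53 and 0.55.

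Among the members, Ifi208 and Ifi213 were the most alike pair (r = 0.93, and 0.87 within diets). Zbp1 correlated with Ifi204 at 0.88 and with Ifi213 at 0.89. Cgas and Tmem173 correlated at 0.47 over all mice and at 0.12 within diets. These are descriptions over 20 mice that share diet groups, and no p is given.

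In HF against NP and in HF + LP against HF, most macrophage markers differed in the same direction as most members. All 12 macrophage and monocyte markers had a higher mean in HF than in NP, 8 of them at p under 0.05 (5.17% of all genes), with a median log2 fold change of 0.51, and 1, Ctss, was called (0.95, adjusted p = 0.00489 from edgeR, 0.264% of all genes). In HF + LP against HF 11 of 12 were lower, 3 at p under 0.05 (2.43%), with a median of −0.37. Their summed level was 472 to 649 CPM in HF, above every NP mouse (326 to 453) and every HF + LP mouse (307 to 468). HF mouse 1 was the lowest of its group for this sum too. In LP the sum ran from 290 to 706 CPM, with the highest in mouse 13. That mouse had the lowest LP values of Irf3, Ifi203, Ifi208 and Ifi213 and the highest of Tbk1 and Ifi204. The part of macrophage content in the members' differences was not tested.

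Markers of other cell types also differed between HF and NP. Neutrophil markers were higher in HF for 3 of 3 tested genes at p under 0.05 (5.17% of all genes), with a median log2 fold change of 1.06, on sums of 4.22 to 18.9 CPM in HF and 4.10 to 9.75 CPM in NP. The median of the 3 in HF + LP against HF was −0.02. The 5 fibroblast markers had a median of 0.19 in HF against NP and −0.29 in HF + LP against HF, where 5 of 5 were lower, 2 of them at p under 0.05 (2.43% of all genes). Their sum was 745 to 1056 CPM in HF + LP and 1012 to 1340 CPM in HF, and 4 of 5 HF + LP mice lay below every HF mouse. The 5 endothelial markers had medians of 0.19 and −0.04, and their sum was higher in every HF mouse (538 to 664 CPM) than in every NP mouse (463 to 532). In HF against NP the medians were −0.47 for the 4 pericyte and smooth muscle markers and −0.20 for the 7 ventricular cardiomyocyte markers. All 7 cardiomyocyte markers were lower in HF, 3 of them at p under 0.05 (7.91% of all genes). Of the pericyte and smooth muscle markers, 2 were lower at that threshold. The medians were 0.50 for the 3 listed B cell markers, 0.01 for the 4 adipocyte markers and 0.58 for the 5 erythroid markers. Of the erythroid markers, 1 was higher at p under 0.05 (5.17% of all genes). The 4 atrial markers, whose highest HF sum was that of mouse 1, had medians of 1.31 in HF against NP and −1.36 in HF + LP against HF. The part of these cell types in the members' differences was not tested. Of the T cell markers 1 was tested, and 2 were at 0 counts in at least 1 library.

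**Figure D5:**
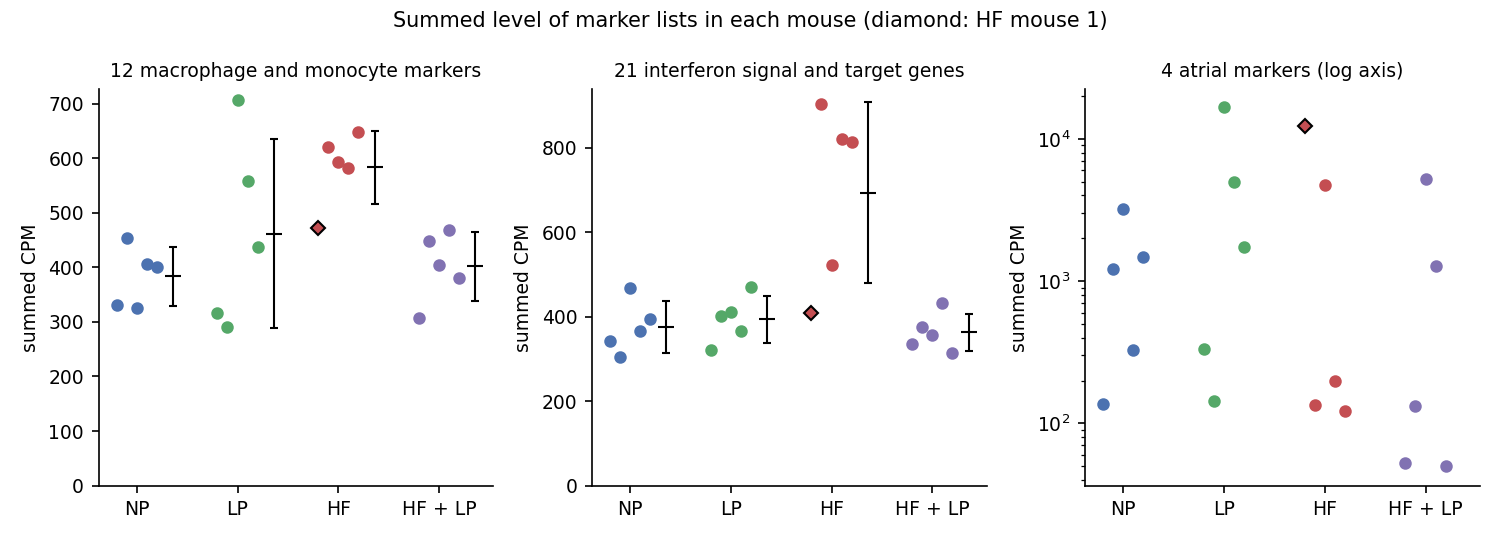
Summed CPM of 12 macrophage and monocyte markers, of the 21 listed interferon signal and target genes, and of 4 atrial markers (log axis) in each mouse by diet, with the mean and SD beside the groups in the first and second parts. HF mouse 1, drawn as a diamond, is the lowest HF mouse for the macrophage (472) and interferon (410) sums and the highest for the atrial sum (12343).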

How the data were processed

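Left ventricular RNA of 20 mice was sequenced by the authors with QuantSeq 3′ libraries in 75-base reads and aligned with BlueBee software. The deposited values are raw counts of reads, 1 column per mouse and 1 line per Ensembl gene. The submitters' processing notes name GRCm38 and DESeq2 1.22.2. The counting program, its annotation and its use of strand are not given in the sources used here. Each listed gene had at least 60 counts in all. Diet and animal number came from the labels.

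Counts were analysed with edgeR 4.0.16 in R 4.3.3. Genes were filtered with filterByExpr by diet (13991 kept), scaled by TMM, and fitted in 1 quasi-likelihood model over the 20 libraries. The Benjamini-Hochberg method adjusted p-values across every gene tested. Standard errors were derived from the F statistic, and approximate 95% intervals from them. Single genes were also compared by two-sided exact permutation tests. The edgeR fit was tried on simulated counts, and the permutation test on made-up values with known answers. Symbols were found for 15917 genes, and coordinates were taken from GENCODE M21. Summed CPM of marker and interferon lists was scaled by each library's total count, without TMM. Likeness was computed on TMM-scaled log2 CPM with a prior count of 2. Depth ranged from 12559607 to 23331907 counts per mouse.

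All members are named. Of the 9 lists, up to 3 genes with the smallest p per main comparison and any called gene were eligible to be named. Relatives of the Ifi200 members were named after their values had been seen, as were genes of marker lists. Members and lists were chosen with earlier results of these data known. Mice are separate animals and were group-housed, but which of them shared a cage or litter is not given in the labels.

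Settings changed one at a time were RLE size factors, DESeq2 1.42.0, the low-count filter (none, or 10 counts in all libraries), the call rule (adjusted p under 0.05, or any base mean), further model terms (the number in a library's name, or the animal number as a block), the model's samples (the compared diets alone, or all but 1 mouse) and, added later, the log2 atrial marker level as a covariate.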

Additional observations from a re-analysis of the deposited data

Results flagged for a closer look

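Of 36 gene and diet pairs with 5 mice each, 2 held a mouse whose gap to its neighbour took up more of the group's range than Dixon's 95% critical value allows, and chance does so in about 1 of 20. Tbk1 was at 63.9 normalized counts in HF + LP mouse 5, apart from the 97.4 to 106.2 of the other 4 mice (gap over range 0.792). Ifi208 was at 49.8 in NP mouse 5, apart from the 26.4 to 31.7 of the other 4 (0.776). That NP mouse also had the highest values of its group for Zbp1 (55.1), Ifi203 (1414) and Ifi213 (97.0), and the highest sum of interferon signal and target genes in NP (469 CPM).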

How the results depend on the processing

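Over the settings, all 9 members kept the sign of their log2 fold change in HF against NP, and 8 did in HF + LP against HF, Tbk1 being the exception. In HF against NP, 5 to 7 members had p under 0.05 when 1 mouse was left out, and in HF + LP against HF 4 to 6. No share of all genes was computed for the fits that left out a mouse. At an adjusted p under 0.05, the count in HF against NP, 2 with all mice, was 0 to 4 when 1 mouse was left out, 1 with the library name number or the compared diets alone, and 4 with DESeq2. In HF + LP against HF, 0 with all mice, it was 3 without HF mouse 1, 0 when any other single mouse was left out and 4 with DESeq2. The number called in HF against NP, none in edgeR, was 1 at an adjusted p under 0.05 and 1 with DESeq2 (Ifi204 in both), and in HF + LP against HF it was 1 with DESeq2 (Ifi213). In LP against NP, 0 to 1 members had p under 0.05 when a mouse was left out, the 1 being Ifi213 without NP mouse 4 or HF mouse 1. The interaction count, 3 in edgeR, was 2 to 4. Same-numbered mice of different diets are different animals and did not all deviate together (correlations of −0.553 to 0.476). With the animal number as a block, 4 members had p under 0.05 in HF against NP, none of them at an adjusted p under 0.05, 1 in LP against NP (Zbp1) and 0 in the interaction, and none was called. Tmem173 in HF + LP against HF then also had p above 0.05.

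Some differences with p above 0.05 turned sign under some settings. For LP against NP the block gave −0.18 for Tmem173 and 0.056 for Ifi203, and Irf3 was 0.011 with 10 counts in all libraries, 0.035 with the library name number and 0.0069 with the atrial level. For HF + LP against LP the block gave 0.088 for Tbk1, 0.0084 for Irf3 and 1.31 for Zbp1, which was −0.29 without the block, and Cgas was −0.014 with 10 counts, −0.019 with the library name number and −0.00014 with the compared diets alone, and Ifi208 was −0.020 with the library name number and −0.12 with the atrial level. Leaving out 1 mouse gave −0.21 to 0.11 for Tbk1 in HF + LP against HF. In LP against NP it gave −0.034 to 0.090 for Tmem173, −0.069 to 0.066 for Irf3 and −0.32 to 0.069 for Ifi203. In HF + LP against LP it gave −0.087 to 0.085 for Cgas, −0.068 to 0.083 for Tmem173, −0.12 to 0.014 for Irf3, −0.48 to 0.010 for Zbp1 and −0.068 to 0.14 for Ifi208. In HF + LP against NP it gave −0.028 to 0.12 for Tmem173, −0.056 to 0.33 for Ifi203, −0.14 to 0.26 for Ifi204, −0.27 to 0.014 for Ifi208 and −0.44 to 0.026 for Ifi213. The causes were not tested. Cgas had 24 to 60 reads per library and Zbp1 10 to 163, which limits their precision.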
